A study of Drosophila melanogaster with 12 samples.

Results

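Enteroblasts (EBs) from control flies were compared with whole guts from control flies. The comparison used the 3 arrays of purified control EBs and the 3 arrays of control guts, 6 of the 12 arrays of the series, chosen by their sample titles alone. Normalized and fitted on their own, these arrays give a profile of progenitor RNA against the RNA of the organ that the progenitors renew.

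The lining of the adult fly midgut is renewed by intestinal stem cells. A stem cell gives rise to EBs, which receive a Notch signal and mature into enterocytes (ECs), the large polyploid cells that digest and absorb food, while hormone-secreting enteroendocrine cells arise through a separate precursor. ECs make up most of the tissue mass, so RNA of a whole gut comes largely from ECs, with additions from visceral muscle, trachea, enteroendocrine cells and the progenitors themselves. The gut samples therefore contain EB RNA as well, and the comparison is of a part against the whole.

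Control guts came from females carrying Myo-GAL4, a driver active in ECs, with UAS-GFP. Control EBs came from females carrying dHey-Gal4 (Hey-Gal4 in the study's methods) with UAS-GFP, and per the methods also UAS-mCD8GFP, a surface tag by which the cells were pulled out of dissociated guts on magnetic beads. The remaining 6 arrays, again 3 of guts and 3 of EBs, carried RNAi against Hey under the same drivers. Hey is a transcription factor related to the Hairy and Enhancer of split family, for which the paper proposes repressing and activating roles in ECs. Per the labels, culture was at 18 °C until adult females aged 2 to 4 days were shifted to 29 °C, where they stayed 2 days before RNA was taken. The methods add a further stay at 18 °C of varying length for the EB flies, describe the EB driver as active chiefly in EBs with little activity in stem cells, and show that the purity of the EB fraction varied between preparations. Driver, surface tag, bead purification and possibly age thus separate the groups together with the cell type, and their parts in any difference cannot be told apart. The same holds for fewer cells of a type and less RNA per cell in a whole gut.

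The 1-colour NimbleGen arrays read each of 15473 transcripts with 4 probes, each 60 nucleotides long. A level below is a quantile normalized log2 intensity, and a difference is the mean level in EBs minus the mean level in guts, so that a positive value means higher in EBs. A transcript was called when its Benjamini-Hochberg adjusted p over all 15473 transcripts, from limma, was under 0.05 and its difference was at least 2-fold. Of the array's transcript identifiers, 17 could be paired with 1 gene each and 27 with several genes that share a transcript. The other 15429 carry no gene name here. None of the markers fixed for progenitors, ECs, enteroendocrine cells, muscle or other cell types was among the named transcripts, apart from the basement membrane gene LanA, so the labelled cell types were not checked against their defining markers. Hey itself was not analysed here for the same reason.

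The EB arrays and gut arrays were clearly different from each other, and the EB arrays were also less alike. Pearson correlations of log2 levels over all transcripts ran from 0.985 to 0.988 within guts, from 0.936 to 0.966 within EBs and from 0.82 to 0.889 between an EB and a gut array. The first principal component carried 77.2% of the variance and placed the guts between -88.1 and -81.0. EB 1 lay at 62.5, EB 3 at 78.8 and EB 2 at 115.3, so EB 1 was nearest to the guts and EB 2 farthest. The median SD of a transcript was 0.35 in EBs and 0.19 in guts, a ratio of 1.85, and 73.6% of transcripts varied more in EBs. The fit uses 1 spread for both groups, and with weights set separately for each group 4665 transcripts were called in place of the 4605 given next.

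In all, 4605 transcripts were called, 29.8% of those tested. EBs were higher for 2487 (16.1% of those tested) and guts for 2118 (13.7%). The 3 EB levels did not overlap the 3 gut levels for 8849 transcripts, 57.2% of those tested, and among the calls for 4588 of 4605. An adjusted p under 0.05 at any size was reached by 6687 transcripts, 43.2%, of which 2082 differed by under 2-fold, and 476 had a difference of at least 2-fold without passing the test, 227 of them with the higher mean in EBs and 249 in guts. The median SE of a difference over all transcripts was 0.25. The balance between the directions was that of this scaling, and other scalings are given below.

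The 2 directions differed in size. Calls higher in EBs had a median difference of 1.47 on the log2 scale, with quartiles of 1.20 and 1.89. Calls higher in guts had a median of -2.34, with quartiles of -1.51 and -3.42. At least 4-fold differences numbered 524 in favour of EBs, 3.39% of the transcripts tested, and 1262 in favour of guts, 8.16%. As a share of the calls in each direction these were 21.1% and 59.6%.

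The gap widened with size. At 8-fold or more there were 89 transcripts higher in EBs and 711 higher in guts, and at 16-fold or more 10 and 310. From 32-fold upwards 1 transcript was higher in EBs and 100 were higher in guts, and from 64-fold upwards there were 36, all higher in guts. The largest difference was 34.0-fold in favour of EBs and 232-fold in favour of guts. The latter divides by a dim EB level and depends on how low intensities are treated: with 32 units added before log2 these folds were 31.1 and 127. The count at 16-fold or more moved by over 1.5 times with single EB arrays: without EB 1 it was 496 in favour of guts and 14 in favour of EBs, and without EB 2 it was 192 and 5.

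**Figure D1:**
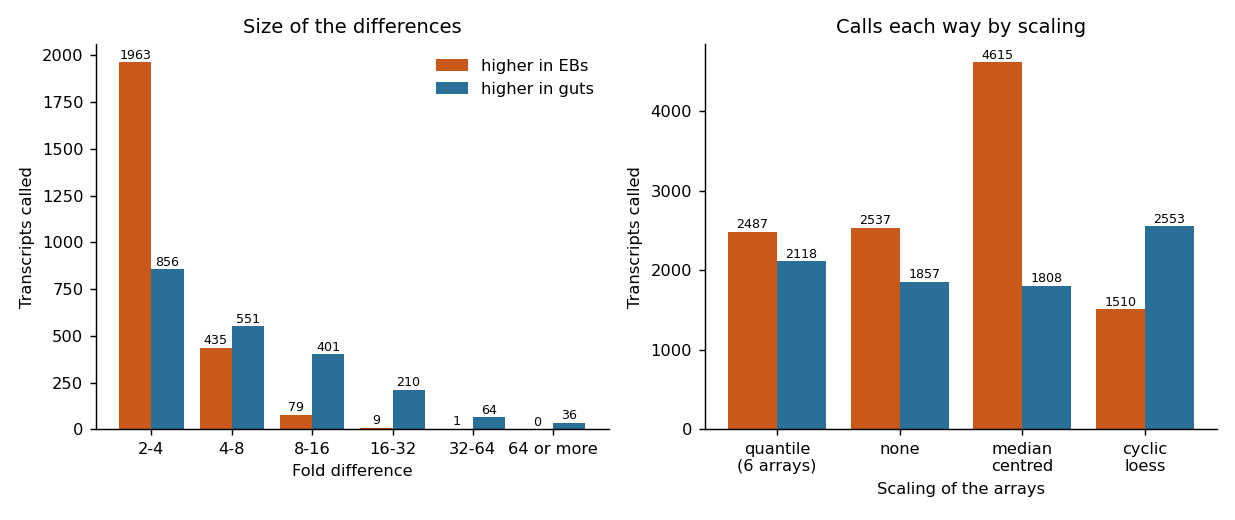
Left, number of transcripts called higher in EBs (orange) or in guts (blue) by fold difference; the 2- to 4-fold class holds 1963 EB calls and 856 gut calls, and each larger class holds more gut calls. Right, calls each way under 4 scalings of the same 6 arrays, where the larger side changes from EBs under median centring (4615 against 1808) to guts under cyclic loess (1510 against 2553).

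Which direction held more calls depended on how the arrays were scaled, whereas the direction with the large differences did not. The median transcript lay 0.21 above 0 after quantile normalization, and 59.5% of all transcripts had a positive difference. Relative to that median transcript, 1858 of the 2487 EB calls were still at least 2-fold higher. Without further normalization the median shift was 0.37 and EBs led by 2537 to 1857. Centring each array on its median gave a median difference of 0.63 and 4615 EB calls against 1808 gut calls, 71.9% against 28.1%. Cyclic loess gave a median of -0.03 and reversed the order, with 1510 EB calls (37.2%) against 2553 gut calls (62.8%). Gut calls of at least 4-fold outnumbered EB calls of that size under each of these scalings, by 1248 to 582 without normalization, 1149 to 926 with median centring and 1467 to 317 with cyclic loess. No transcript called after quantile normalization was called in the opposite direction under any of them.

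Transcripts at both ends of the intensity range were called least often. The transcripts were put into 10 classes of equal size by mean level over the 6 arrays, class 1 being the dimmest. Of class 1, 7.04% were called, and of class 10, 13.2%. The share rose to 53.1% in class 5, with 28.5% higher in EBs and 24.6% higher in guts, and was 49.3% in class 6. EB calls outnumbered gut calls in each class except class 9, where 13.4% were higher in EBs and 13.6% in guts. The median SD in EBs was also greatest in the middle of the range, at 0.50 in classes 4 and 5 against 0.31 in the dimmest and 0.19 in the brightest.

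**Figure D2:**
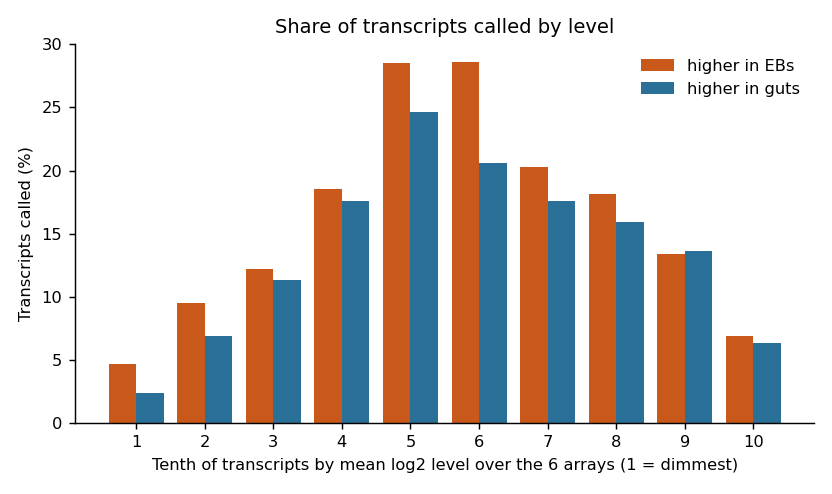
Percentage of transcripts called higher in EBs (orange) or in guts (blue) in each of 10 classes of the 15473 transcripts, ordered by mean log2 level over the 6 arrays. Both shares peak in classes 5 and 6 and are lowest in class 1, the dimmest, at 4.65% and 2.39%.

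The calls of both directions had their median in the brighter 50% of the profile they were higher in and in the dimmer 50% of the other. The median level of the gut calls was 11.40 in guts, brighter than 69.9% of transcripts, and 8.11 in EBs, brighter than 41.4%. The median level of the EB calls was 10.60 in EBs, brighter than 60.4% of transcripts, and 8.78 in guts, brighter than 45.9%. Of the gut calls, 929 (43.9%) were in the brightest 25% of the gut profile and 441 (20.8%) in its brightest 10%. Of the EB calls, 756 (30.4%) were in the brightest 25% of the EB profile and 279 (11.2%) in its brightest 10%. The gut calls thus lay higher in their own profile than the EB calls did in theirs. These positions come from the levels that made the calls and are given as a description.

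The profiles shared somewhat more than 50% of their members at either end. The dimmest 10% of each profile shared 945 transcripts, 61% of either list, and the brightest 10% shared 913, 59% of either list. Among the transcripts in the dimmest 10% in guts, 221 were called higher in EBs (14.3%, against 16.1% of all transcripts), with a median difference of 1.43 and the largest at 3.64. None of these was brighter in EBs than 48.5% of transcripts, and their median stood above 23.4%. Among the transcripts in the dimmest 10% in EBs, 246 were called higher in guts (15.9%, against 13.7% of all transcripts), with a median difference of -2.32, and in guts they reached a rank above 92.2% of transcripts.

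**Figure D3:**
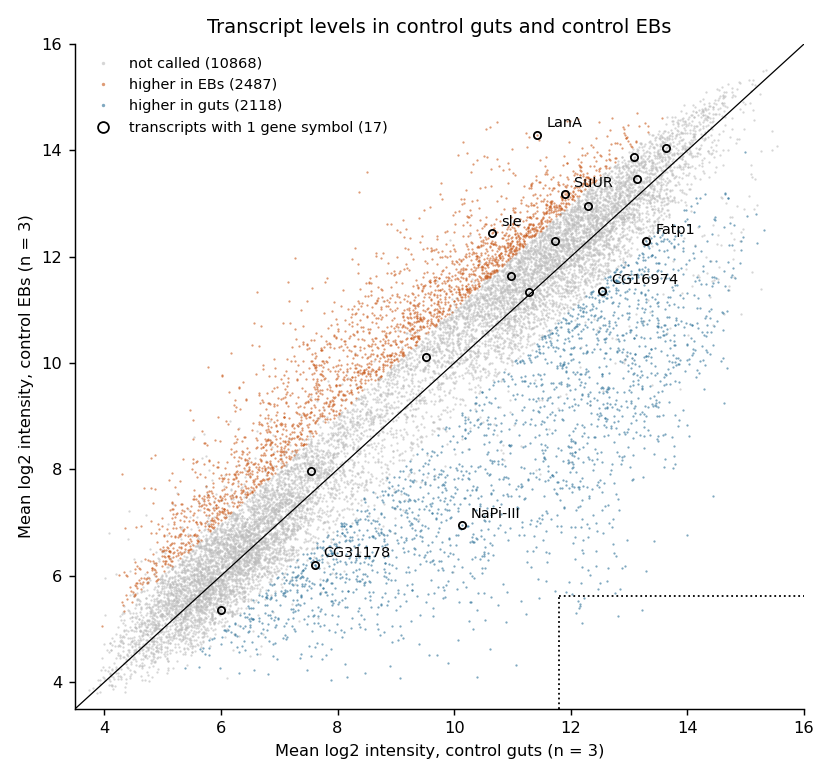
Mean log2 level of each transcript in the 3 control EB arrays (vertical axis) against the 3 control gut arrays (horizontal axis), with calls in colour, the diagonal of equal level, and the 17 transcripts with 1 gene symbol circled. The dotted corner marks the brightest 25% in guts with the dimmest 10% in EBs, which holds 9 transcripts; blue points reach much farther from the diagonal than orange ones.

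Transcripts bright in one profile and near the bottom of the array in the other were found in 1 direction. Defined as the brightest 25% of one profile and the dimmest 10% of the other, among called transcripts, this class held 9 transcripts bright in guts and dim in EBs, and 0 transcripts bright in EBs and dim in guts. Gut samples contain EB RNA, which limits how dim a transcript bright in EBs can be in guts, and the part of this in the count of 0 was not tested. The 9 had levels of 11.92 to 13.23 in the gut arrays and of 4.71 to 6.05 in the EB arrays, with no overlap. As deposited, their intensities ran from 3263 to 10780 units in guts and from 21.5 to 108 units in EBs. Their differences ran from -6.60 to -7.86 with a median of -6.76, and each of the 9 was also called in each of the 6 fits that left out 1 array. Their levels in EBs were above 2.43% to 17% of the transcripts on single arrays.

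The lack of an EB counterpart was also seen with other limits. With the brightest 10% against the dimmest 25% there were 2 gut transcripts and 0 EB transcripts, and with the brighter 50% against the dimmest 5% there were 13 and 0. Only with the brighter 50% against the dimmest 25%, a definition added after the values were seen, did EB transcripts appear, at 12 against 139. The count of 0 EB transcripts held under each scaling and without each array in turn, and the count of 9 gut transcripts ran from 8 to 10 over the scalings and from 6, without EB 2, to 12, without EB 1. The limits were set on ranks. A dim level is a low intensity, and no detection limit was available, so it does not show that a transcript was absent.

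The transcript with the largest difference, FBtr0084810, had levels of 5.73, 5.64 and 4.71 in EB 1, 2 and 3, and of 13.21, 13.22 and 13.23 in the guts. It was among the brightest 10% in guts and the dimmest 10% in EBs, and its 3 gut values were within 0.02 of each other. Its difference was -7.86 (SE 0.29, adjusted p = 4.397e-05). In the second, FBtr0074525, the EB levels were 5.11, 4.94 and 5.71 and the gut levels 12.70, 12.81 and 12.90. Its difference was -7.55 (SE 0.24, adjusted p = 3.906e-05). Neither identifier is paired with a gene name here.

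The corresponding extremes among EB calls did not start from the bottom of the gut profile. FBtr0074823 had levels of 13.76, 13.46 and 13.57 in EBs and of 8.54, 7.81 and 9.18 in guts. It ranked above 95.4% of transcripts in EBs and still above 44.0% in guts, with a difference of 5.09 (SE 0.35, adjusted p = 0.0001936). FBtr0073854 had levels of 13.26, 13.35 and 13.06 in EBs and of 8.29, 8.26 and 8.55 in guts, a difference of 4.85 (SE 0.18, adjusted p = 4.177e-05). These last 2 were chosen after their values were seen, since no EB transcript met the definition above. Of the 89 transcripts at least 8-fold higher in EBs, 42 were in the brightest 25% in EBs, 21 in the dimmest 25% in guts and 6 in its dimmest 10%. Of the 36 at least 64-fold higher in guts, 33 were in the brightest 25% in guts, 32 in the dimmest 25% in EBs and 11 in its dimmest 10%. The limits of 8-fold and 64-fold are unlike, and a 64-fold gap fixes such positions in part. These counts are a description and no comparison of the directions.

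The brightest transcripts of both profiles overlapped in part. The brightest 1 in 100 transcripts, 154 in each profile, had 56 in common, 36.4% of each list. Each list was chosen for its level in 1 group, so its direction is fixed in part by that choice. Of the EB list, 11 were called higher in EBs, where 16.1% of all transcripts were, 0 were called higher in guts, and 1 lay outside the brightest 25% in guts. Of the gut list, 42 were called higher in guts, where 13.7% of all transcripts were, 27 lay outside the brightest 25% in EBs and 1 outside its brighter 50%. The brightest 1 in 100 transcripts of each array took 10.8%, 9.58% and 10.2% of its summed deposited intensity in EB 1, 2 and 3 and 10.0%, 11.1% and 9.65% in the guts. The ranges overlapped (exact two-sided permutation test, p = 0.9, where 3 arrays against 3 cannot give less than 0.1), so no difference in how far the signal was concentrated was found at this sample size. Intensities of different probes are not on 1 scale per RNA molecule, so these shares describe signal and not RNA.

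The 3 EB arrays differed from each other in the levels of what was higher in guts, among other differences. The second principal component carried 11.9% of the variance. It placed EB 1 at 65.3, EB 3 at 2.9 and EB 2 at -50.2, and the guts between -13.4 and 1.1. The gut calls had median levels of 8.63, 7.67 and 8.22 in EB 1, 2 and 3, against 11.45, 11.37 and 11.33 in the guts. For the 310 transcripts at least 16-fold higher in guts, the medians were 8.03, 6.38 and 7.36 in the EBs. Relative to the gut mean, the median difference of these transcripts was -4.05 in EB 1, -5.69 in EB 2 and -4.62 in EB 3. EB 1, the array nearest to the guts on the first component, thus had the highest levels of gut transcripts and EB 2 the lowest. The component and the calls come from the levels of the same 6 arrays, so these are not separate observations.

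In the EB calls the spread was smaller and ran the other way for EB 2. Their median levels were 10.52, 10.72 and 10.55 in EB 1, 2 and 3, against 8.73, 8.77 and 8.88 in the guts. Transcript by transcript, EB 1 was the highest of the 3 EB arrays for 51.2% of gut calls, for 61.9% of those of at least 16-fold and for 33.3% of all transcripts. EB 2 was the lowest for 51.0%, 74.2% and 31.4% of the same sets, and it was the highest for 51.4% of EB calls against 40.3% of all transcripts. The median SD over the EB arrays was 0.49 for gut calls, 0.34 for EB calls and 0.35 for all transcripts, and it varied with level as given above. The study measured purity by flow cytometry in each experiment, but the labels do not tie those measurements to single arrays, and EC markers were not available by name. The part of other gut cells in these differences was not tested.

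**Figure D4:**
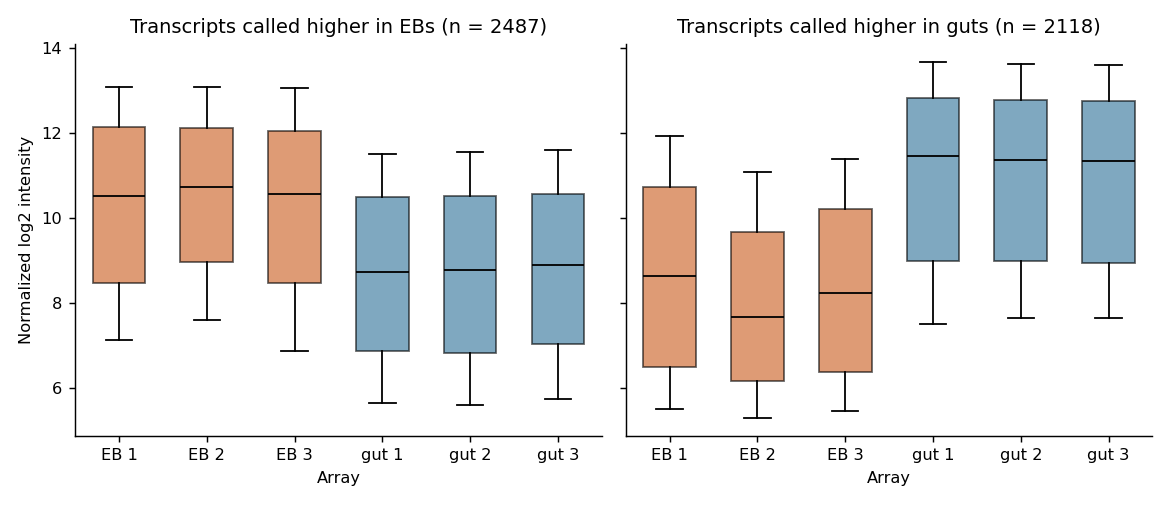
Normalized log2 levels of the 2487 transcripts called higher in EBs (left) and the 2118 called higher in guts (right) in each of the 6 arrays; the line is the median, the box the middle 50% and the whiskers the 10th and 90th percentiles. The gut calls step from EB 1 (median 8.63) over EB 3 (8.22) to EB 2 (7.67), while the EB calls lie between 10.52 and 10.72 in the same arrays and the 3 guts are alike in both panels.

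The same contrast in the Hey RNAi arrays, which share no array with the comparison above, called 4322 transcripts, 27.9%, with 13.9% higher in EBs and 14.1% higher in guts. Of the 2487 EB calls, 1072 (43.1%) were called in the same direction there and 25 in the opposite one. Of the 2118 gut calls, 1302 (61.5%) were called in the same direction and 31 in the opposite one. Both shares are well above the background share for their direction. Among transcripts of at least 4-fold in the controls, 348 of 524 EB calls and 920 of 1262 gut calls were called the same way. Whether EB calls and gut calls differed in this respect was not tested. In those arrays the knockdown was driven in ECs for the guts and by the EB driver for the EBs. They thus repeat the tissue contrast in other genotypes, with different target cells in each tissue, and are not further replicates of the controls.

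Of the 9 transcripts bright in guts and dim in EBs, 8 were called higher in guts in the Hey RNAi arrays as well. On a normalization over all 12 arrays, their median levels were 12.10 to 12.27 in the control guts, 11.48 to 11.83 in the Hey RNAi guts and 4.89 to 5.58 in the control EBs. In the Hey RNAi EBs the medians were 5.30, 7.46 and 6.01, and single transcripts reached 9.14 in the second. FBtr0084810 differed by -8.41 there (SE 0.22, adjusted p = 9.899e-05) and FBtr0074525 by -5.46 (SE 0.77, adjusted p = 0.003022).

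The named transcripts are few, and they are those whose identifiers could be paired with a gene, not a sample of functions. Of the 17 transcripts with 1 gene, 3 were called higher in EBs and 4 higher in guts, 41.2% against a background of 29.8%, and 10 were not called. The median of their differences was 0.42, and the median of all transcripts was 0.21. They lay in the brighter part of the array, with a median rank above 82.1% of transcripts in EBs and 70.2% in guts.

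**Figure D5:**
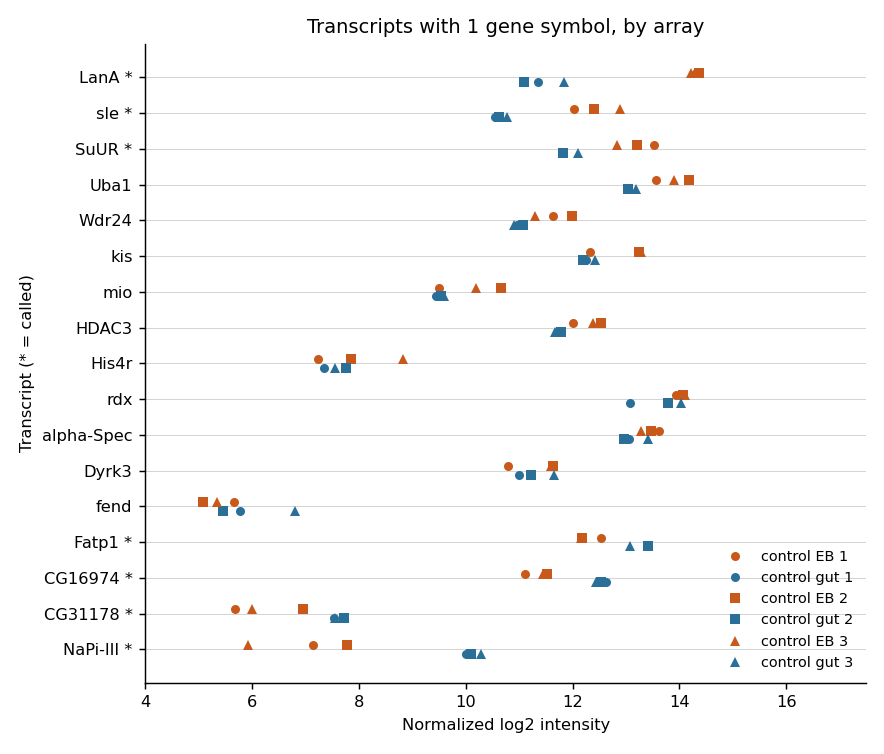
Normalized log2 levels of the 17 transcripts with 1 gene symbol in each control EB (orange) and control gut (blue) array, ordered by the difference, with called transcripts starred. LanA, sle and SuUR have all EB points to the right of all gut points, and NaPi-III, CG31178, CG16974 and Fatp1 have them to the left.

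The largest difference in favour of EBs among them was that of LanA, which encodes a laminin alpha chain, a core component of the basement membrane on which progenitors sit. Its levels were 14.31, 14.36 and 14.22 in EBs and 11.35, 11.08 and 11.84 in guts. It was brighter than 98.6% of transcripts in EBs and than 70.2% in guts. The difference was 2.87 (SE 0.23, adjusted p = 0.0003254), or 7.31-fold. LanA was the only measured member of the 14 basement membrane genes listed, and none of the markers listed for muscle or haemocytes, which also make basement membrane, was measurable by name. The part of those cells in its level was not tested.

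sle (slender lobes), which encodes a nucleolar protein, had levels of 12.03, 12.39 and 12.89 in EBs and of 10.55, 10.63 and 10.78 in guts. All EB values were above all gut values, and the difference was 1.78 (SE 0.25, adjusted p = 0.002215). It was the 1 measured gene of the 30 listed for ribosome biogenesis and the nucleolus.

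SuUR encodes a chromatin protein known for restraining replication of heterochromatin in polyploid fly cells. Its levels were 13.52, 13.20 and 12.83 in EBs and 11.80, 11.81 and 12.10 in guts, a difference of 1.27 (SE 0.23, adjusted p = 0.005409). All EB values were above all gut values. In the Hey RNAi arrays the sign was negative, at -0.60 (SE 0.24, adjusted p = 0.0903). Sets of arrays of like mean intensity were inferred from the values and not from the labels. With these sets as a block the control difference was 0.89, under 2-fold. EB 3, its lowest EB level, and gut 1 are the only control EB and control gut that share a set, so this value rests in part on EB 3.

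NaPi-III and Fatp1 were called higher in guts, the first with the largest difference of the 17 in that direction and the second at the limit of a call. NaPi-III, a sodium-dependent phosphate transporter, had levels of 7.14, 7.78 and 5.93 in EBs and of 10.01, 10.11 and 10.29 in guts. The guts were higher by 9.08-fold with a difference of -3.18 (SE 0.45, adjusted p = 0.002273). The call was present under each of the 18 other settings and arrays left out. Fatp1, which encodes a fatty acid transport protein, had levels of 12.53, 12.17 and 12.16 in EBs and of 13.41, 13.41 and 13.08 in guts. Its difference of -1.01 (SE 0.20, adjusted p = 0.007287) lay at the 2-fold limit. Over 18 other settings the difference ran from -0.72 to -1.23, and the call was lost in 9 of them. NaPi-III was thus near the middle of the gut profile and dim in EBs, whereas Fatp1 was bright in both.

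CG16974 and CG31178 were also higher in guts. CG16974 had levels of 11.11, 11.53 and 11.44 in EBs and of 12.62, 12.53 and 12.44 in guts, a difference of -1.17 (SE 0.18, adjusted p = 0.003444), which fell to -0.86, under 2-fold, with median centring. CG31178 had levels of 5.68, 6.95 and 6.01 in EBs and of 7.54, 7.72 and 7.56 in guts, a difference of -1.39 (SE 0.33, adjusted p = 0.01563). The call of CG31178 was lost with median centring and without gut 2 or gut 3, where the adjusted p reached 0.0578.

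Uba1, Wdr24 and HDAC3 had an adjusted p under 0.05 with smaller differences. Uba1, the ubiquitin-activating enzyme, had levels of 13.55, 14.18 and 13.89 in EBs and 13.03, 13.04 and 13.18 in guts, a difference of 0.80 (SE 0.21, adjusted p = 0.02226). Wdr24, which acts in GATOR2, an activator of TORC1 signalling, had levels of 11.64, 11.99 and 11.29 in EBs and 10.95, 11.08 and 10.90 in guts, a difference of 0.66 (SE 0.22, adjusted p = 0.0489). HDAC3, a histone deacetylase, had levels of 12.01, 12.52 and 12.37 in EBs and 11.71, 11.78 and 11.67 in guts, a difference of 0.58 (SE 0.19, adjusted p = 0.04849). In these 3 the groups did not overlap, as in 57.2% of all transcripts, and the difference was under 2-fold, so none was called.

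The other GATOR2 member measured, mio, had a difference of 0.60 (adjusted p = 0.1544), and kis, which encodes a chromodomain remodeller, one of 0.66 (adjusted p = 0.1104). In both, EB 1 was close to the guts and EB 2 and 3 were above them. For mio the levels were 9.51, 10.66 and 10.20 in EBs against 9.44 to 9.60 in guts, and for kis 12.32, 13.24 and 13.28 against 12.20 to 12.42.

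The remaining 5 named transcripts did not pass the test. They were rdx (0.40), an adaptor of a Cullin ubiquitin ligase, alpha-Spec (0.32), a membrane skeleton protein, the kinase Dyrk3 (0.05), the axon guidance gene fend (-0.64) and His4r (0.42). Their adjusted p values ran from 0.2061 to 0.9049. The 95% intervals were -0.53 to 1.38 for His4r and -0.24 to 1.05 for rdx, so differences of 2-fold in favour of EBs are inside them. His4r encodes histone H4, which is almost identical in the repeated histone genes, so its probes may read more than 1 gene. The level of His4r was 7.23, 7.86 and 8.83 in EBs and 7.34 to 7.75 in guts, and EB 3 set its sign.

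The 27 transcripts shared by several genes are mostly messages with a pair of reading frames, so a level belongs to the shared transcript and to neither gene alone. Of these, 4 were called higher in EBs, 3 higher in guts and 20 not called, 25.9% called against the background of 29.8%. The transcript of Rad1, a subunit of the DNA damage checkpoint clamp, and Sws1 had levels of 9.66, 10.38 and 10.07 in EBs and 7.64, 7.72 and 8.04 in guts, a difference of 2.24 (SE 0.24, adjusted p = 0.0008404). The lemming transcript of lmgB and lmgA, which includes a subunit of the anaphase-promoting complex, had levels of 11.81, 10.996 and 10.79 in EBs and 9.58, 9.76 and 9.48 in guts, a difference of 1.59 (SE 0.29, adjusted p = 0.005886). Both pairs had all EB values above all gut values.

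The other pair of EB calls was smaller. The transcript of Pbp49, a subunit of the complex that activates small nuclear RNA genes, and CG42516 had levels of 14.07, 13.53 and 13.40 in EBs and of 12.33, 12.58 and 12.59 in guts. Its difference was 1.17 (SE 0.23, adjusted p = 0.007495). That of Tcs1, which acts in tRNA modification, and Polr3K, a subunit of RNA polymerase III, had levels of 10.68, 10.33 and 10.45 in EBs and of 9.33, 9.55 and 9.27 in guts. Its difference was 1.11 (SE 0.18, adjusted p = 0.004064). Both fell under 2-fold with cyclic loess, and so are near the limit of a call.

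The 3 gut calls among shared transcripts were CG17325 with CG42305, CG8026 with CG45085, and CG6191 with CG45088. CG17325 with CG42305 had levels of 5.11, 5.52 and 4.96 in EBs and 7.30, 6.94 and 7.48 in guts, a difference of -2.04 (SE 0.23, adjusted p = 0.001099). It lay above 5.18% of transcripts in EBs and above 33.1% in guts, so it was dim in both. CG6191 with CG45088 differed by -1.14 (SE 0.19, adjusted p = 0.004229), a call lost with median centring (-0.83, adjusted p = 0.0556). CG8026 with CG45085 differed by -1.21 (SE 0.34, adjusted p = 0.02704), a call lost in 9 of 18 other settings. The 20 transcripts not called ran from -0.35 to 0.89. Those of vnc (0.89), PIG-P with Tcs6 (0.84) and Rpp14a with CG7950 (0.60) had adjusted p values of 0.009462, 0.006913 and 0.02958 at under 2-fold, while the difference of the Tim10 transcript, for a mitochondrial import chaperone, was 0.34 (adjusted p = 0.1929).

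The ranges of array brightness overlapped between the groups. Mean deposited intensity ran from 2605 to 3214 units in the control EBs and from 2337 to 3200 units in the control guts. By the inferred sets of like mean intensity, EB 1, EB 2, gut 2 and gut 3 shared no set with a control array of the other tissue. EB 3 and gut 1 had nearly the same mean, 3214 and 3200 units, and did share a set. Between these 2 arrays alone, 2486 of the 2487 EB calls and 2117 of the 2118 gut calls had the sign of the whole comparison, and 2017 and 1955 were at least 2-fold apart, with median differences of 1.40 and -2.39. These arrays also made the calls, so the values describe size within a like pair and are no separate test.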

How the data were processed

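RNA of 12 samples was measured, of which 6 enter the comparison (3 control EBs, 3 control guts, independent crosses per the study's methods). The authors extracted the arrays in NimbleScan and normalized and tested them in ArrayStar, and the submitters' processing notes name RMA. In the matrix deposited by the authors there is 1 linear intensity per transcript and array, and whether it precedes or follows the authors' normalization is not given in the sources used here. The authors' workbooks of Hey RNAi fold changes and p-values were not used. Intensities of the 6 arrays were taken to log2, quantile normalized and fitted in limma 3.58.1 (R 4.3.3; lmFit, eBayes) with 4 residual and 2.68 prior degrees of freedom and no filter. Quantile normalization gives EBs and guts 1 distribution, which can hide a change common to most transcripts. The number of arrays limits the precision. The scripts were tested on simulated data.

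Named were all transcripts paired with 1 gene, and at most 2 without a name in each direction, those with the largest difference among transcripts bright in one profile and among the dimmest in the other. Transcripts shared by several genes were added. Names came from RefSeq synonyms (assembly Release 6 plus ISO1 MT). No sequences or coordinates were used. The comparison and gene lists were chosen with earlier results of these data known. Of the other fixed lists, His4r, alpha-Spec, Uba1 and kis were each the only measured member, Wdr24 and mio the measured TORC1 genes, and the Notch, JAK-STAT with EGFR and V-ATPase lists had none.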

Additional observations from a re-analysis of the deposited data

Results flagged for a closer look

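The difference between EBs and guts was not the same in controls and in Hey RNAi for 10 of the 48 transcripts described above, by a test of the difference of differences over all 12 arrays (limma, Hey RNAi minus control, adjusted p under 0.05, which 1975 of all transcripts or 12.8% passed). The control EB and gut arrays enter both this test and the comparison reported above. Hey RNAi was driven by a different driver in each tissue, so its target cells differ between guts and EBs. Control and Hey RNAi arrays of the same number and tissue had like mean intensities in 5 of 6 cases, and their deviations from the group means correlated at 0.005 to 0.256 in guts and at 0.127 to 0.321 in EBs. With sets of arrays of like mean intensity as a block, an alternative added after the data were seen, 2860 transcripts (18.5%) passed. All 10 named transcripts had the same sign and 8 passed, with Fatp1 (adjusted p = 0.07463) and CG5116 with CG42488 (adjusted p = 0.07209) no longer doing so.

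Among transcripts of 1 gene, the EB minus gut difference was lower under Hey RNAi for SuUR by -1.86 on the log2 scale (1.23 in controls, -0.62 in Hey RNAi, adjusted p = 0.007101), for Uba1 by -1.52 (0.78 and -0.74, adjusted p = 0.01317), for Fatp1 by -1.21 (-0.98 and -2.19, adjusted p = 0.04119) and for Wdr24 by -1.05 (0.64 and -0.41, adjusted p = 0.03518). SuUR, Uba1 and Wdr24 thus had the higher mean in EBs in controls and in guts in Hey RNAi. SuUR, Uba1 and Wdr24 were not called in the Hey RNAi arrays fitted alone in limma, whereas Fatp1 was (-2.12, adjusted p = 0.002084). The differences there were -0.60 for SuUR (adjusted p = 0.0903), -0.72 for Uba1 (adjusted p = 0.0489) and -0.39 for Wdr24 (adjusted p = 0.1404).

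Among shared transcripts, it was lower for Rad1 with Sws1 by -1.24 (2.21 and 0.97, adjusted p = 0.04239), for CG5116 with CG42488 by -1.21 (0.44 and -0.76, adjusted p = 0.0316) and for PIG-M with CG42379, CG42380 and CG42381 by -0.996 (0.21 and -0.79, adjusted p = 0.04425). It was higher for CG32573 with CG42512 by 2.69 (-0.38 and 2.31, adjusted p = 0.004729), for CG30100 with CG42372 by 0.85 (0.31 and 1.17, adjusted p = 0.03092) and for CG31917 with Tfb5 by 0.77 (0.21 and 0.97, adjusted p = 0.03483).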

How the results depend on the processing

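Over 18 other settings the total ran from 3916 to 6423 calls, with 3916 to 4968 when an array was left out. EB calls numbered 4615 with median centring and 1510 with cyclic loess, and those of at least 4-fold 926 and 317. With the adjusted p alone there were 4068 EB calls, and tested against a 1.5-fold limit (treat) 2992 calls in all, 1467 of them higher in EBs. The transcripts bright in guts and dim in EBs numbered 42 once the dimmest 1 in 3 transcripts were left out, which moves the lowest 10% up, 2 with the brightest 10% and dimmest 25%, and 139 with the brighter 50% and dimmest 25%, where 12 EB transcripts met the converse; that last definition was added after the values were seen. The difference in the summed intensity share, -0.0591 percentage points, ran from -0.37 to 0.365 when arrays were left out, positive without EB 2 (0.246) or gut 2 (0.365).

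Some transcripts that did not pass the test changed sign. With median centring fend went to 0.0465 and CG32573 with CG42512 to 0.0144. With cyclic loess Dyrk3 went to -0.24 and CG31917 with Tfb5 to -0.0328. Without EB 3 His4r went to -0.0059. Among the fits that left out 1 array His4r was highest without EB 1, at 0.8402. With sets of arrays of like mean intensity as a block it was 1.13 (adjusted p = 0.08517). EB 3, its highest EB level, and gut 1 are the only control EB and control gut that share a set, so this value rests in part on EB 3. When arrays were left out Dyrk3 ran from -0.0963 without gut 1 to 0.3239 without EB 1, and was also negative without EB 2 or EB 3. Uba1 reached 2-fold with median centring (1.05). The causes were not tested. No pairing of EB with gut samples by replicate number was seen, though 3 arrays in each group are too few to exclude it. Same-numbered EB and gut arrays deviated together with correlations of 0.151, -0.036 and -0.104, and differently numbered ones with -0.201 to 0.219. With the replicate block there were 4570 calls, 2450 higher in EBs and 2120 higher in guts. Of the calls, 1749 higher in EBs and 1599 higher in guts were also called in each of the 6 fits that left out 1 array.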
